A study of Mus musculus with 4 samples.

Results

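The comparison described here sets the whole Tmprss3 knockout (KO) organoid library at day 35 against the whole wild-type (WT) library of the same day. Its members are the cell barcodes of those libraries in which 500 or more genes were detected and no more than 10% of unique molecular identifiers (UMIs, counted RNA molecules) came from mitochondrially encoded genes, which came to 14895 of the 35853 such barcodes in the series. Of these, 8166 were from the WT library and 6729 from the KO library. Inner ear organoids are three-dimensional cultures grown from mouse pluripotent stem cells that form otic epithelium together with other tissues. The series holds 4 droplet-based single-cell RNA libraries, WT and KO at days 25 and 35. The WT organoids came from the R1/E embryonic stem cell line, and the KO organoids carried the genotype given as Tmprss3KO-GFPKI, a Tmprss3 knockout with a GFP knock-in. Both have the derived strain 129X1x129S1. The labels do not say how many clones of the knockout line were used or how many organoids were pooled.

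There was 1 library per genotype and day, so no difference has a replicate check and no test between genotypes was made. All intervals are at the 95% level and cover counting error only. In a sum over a whole library, fewer cells of a type and less RNA per cell cannot be told apart, so levels were also recomputed with the same tissue makeup in both libraries and within single cell classes.

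Tmprss3 encodes a transmembrane serine protease of the inner ear that is needed for hair cell survival and hearing. Organoid cultures contain, beside otic epithelium, cells that took other fates, such as skeletal muscle, skin epithelium, neural and glial cells, fat and connective tissue, and they can retain undifferentiated stem cells. Imprinted genes, expressed mainly from the copy inherited from 1 parent, include several regulators of growth that are active in such embryonic tissues.

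Tmprss3 itself (chromosome 17, 31179265 to 31198977, GRCm38) was counted too rarely to check the genotype. It had 8 UMIs in the WT library, 0.259 CPM (UMIs scaled to the same library total, interval 0.112 to 0.510), and 5 UMIs in the KO library, 0.131 CPM (0.0424 to 0.305). The log2 ratio was -0.99, with an interval from -2.95 to 0.80 that includes no difference. The counts are from the 3' end of transcripts, and whether the knockout removes that end is not given in the sources used here.

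The kept cells held 30887121 UMIs in WT and 38307020 in KO. The median cell had 3089 UMIs in WT and 4420 in KO, with 4.81% and 3.42% of them from mitochondrially encoded genes. The filter kept 88.3% of WT and 95.1% of KO barcodes, the mitochondrial limit having removed 1081 and 348, and the libraries had 84 barcode sequences in common. The KO cells were thus deeper and had a lower mitochondrial share, and the part of depth and cell quality in the results below was not tested.

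Classes of cells were named from marker genes, each with the suffix -like. The muscle classes made up a smaller share of the KO library. Skeletal muscle-like cells were 10.5% of WT cells (854 cells, interval 9.80% to 11.1%) and 3.76% of KO cells (253 cells, 3.32% to 4.24%), a ratio of 0.360 (0.311 to 0.414). Myogenic progenitor-like cells, which carry Pax7 and Myf5, the regulators of muscle stem cells, were 6.0% of WT and 2.13% of KO cells, a ratio of 0.354 (0.292 to 0.428). Both muscle classes therefore had close to the same ratio.

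The astrocyte-like, oligodendrocyte lineage-like and neuron-like classes were found mostly in the KO library at this day. Astrocyte-like cells numbered 12 in WT (0.147%) and 297 in KO (4.41%), a ratio of 30.04 (16.9 to 58.8). Counting cells by at least 3 astrocyte markers at equal depth instead gave 85 WT and 250 KO cells, a ratio of 3.57 (2.78 to 4.62), and 9.41% of the WT and 62.4% of the KO cells so counted lay in the astrocyte-like cluster. Oligodendrocyte lineage-like cells numbered 1 in WT and 64 in KO, a ratio of 77.7 with an interval from 13.4 to 3115. That value rests on 1 WT cell, and with 0 WT cells set to 3 the ratio was 25.7 without a filter on cells, 23.1 when leading genes that differed were left out of the clustering and 19.8 by marker count. Neuron-like cells numbered 5 and 24, a ratio of 5.83 (2.18 to 19.5). Schwann cell or satellite glia-like cells, glia of the peripheral nerves, differed less, with 60 WT and 73 KO cells and a ratio of 1.48 (1.03 to 2.11).

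A class of pluripotent cell-like cells was found in the KO library alone. It held 319 KO cells, 4.74% of the library (4.25% to 5.28%), and 0 of 8166 WT cells. The exact interval allows a WT share of up to 0.0452%, and 3 counts would be a share of 0.0367%. The KO share was at least 104-fold higher by the bound of the exact interval, and 129-fold with the WT count set to 3. These cells were large in RNA content, with a median of 14020 UMIs, so that they supplied 13.5% of all KO UMIs. Of the 319 cells, 18 were among the highest doublet scores.

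Of the remaining classes, adipocyte-like cells were 0.171% of WT and 1.29% of KO cells, a ratio of 7.54 (4.26 to 14.4), and 4.29 (2.84 to 6.66) by marker count. Keratinocyte-like cells were 1.76% and 2.50%, a ratio of 1.42 (1.13 to 1.78). Mesenchymal cell or fibroblast-like cells were 9.21% and 11.0%, a ratio of 1.19 (1.08 to 1.32), and this ratio was 0.896 when the cells were divided into finer clusters. A count by at least 3 of the markers, at equal depth, gave 47.3% and 51.7%, a ratio of 1.09. Of the cells so counted, 19.5% (WT) and 21.1% (KO) lay in the class. Not counted in any class were 6 unnamed clusters. Of these, the cluster led by Ccl5 and Mmp3 held 9.17% of WT and 17.7% of KO cells, and that led by Fgf21 and Lgals3 held 14.7% and 6.98%. Cycling cell-like clusters held 2.77% of WT and 1.31% of KO cells, a ratio of 0.473 (0.365 to 0.607). A count of cells by cell cycle markers alone, at equal depth, gave a ratio of 1.43 for the same class. Of the KO cells so counted 27.6% lay in the cycling clusters, and of the WT cells 92.8%.

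**Figure D1:**
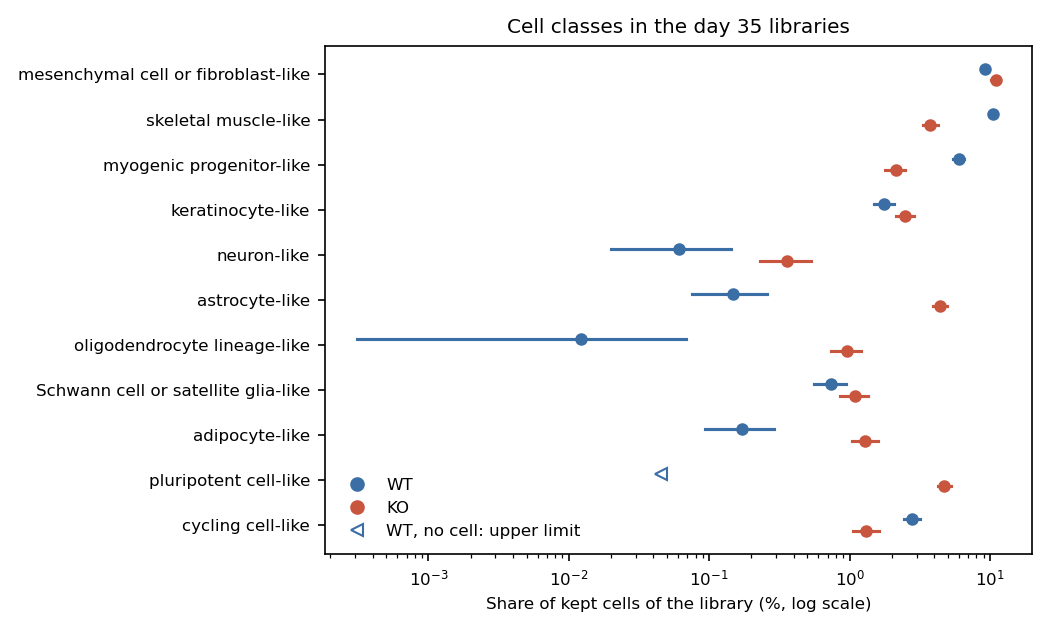
Share of kept cells in each named non-otic class, in percent on a log axis, for the WT and KO libraries of day 35 (1 library each). Points are shares, bars are exact binomial 95% intervals and the open triangle is the upper limit for the class without a WT cell. The muscle and cycling classes lie lower in KO, and the astrocyte-like, oligodendrocyte lineage-like, neuron-like, adipocyte-like and pluripotent cell-like classes lie higher with no overlap of intervals.

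Over the whole organoid, 14276 genes had at least 50 UMIs in the day 35 libraries together. Of these, 1117 (7.82%) were at least 2-fold higher in KO and 344 (2.41%) at least 2-fold lower, with a median log2 ratio over all genes of 0.23. Scaling by trimmed means (TMM) in place of totals brought that median to 0.02 and the counts to 829 higher and 482 lower. For 665 of the 1117 higher genes, the pluripotent cell-like cluster supplied more KO UMIs than any other cluster. Without that cluster, 629 genes were at least 2-fold higher and 306 lower. When each cluster was given the same weight in both libraries, over 15 clusters that held 98.1% of WT and 87.2% of KO cells, 408 genes (2.86%) were at least 2-fold higher and 212 (1.49%) lower. Of the 1117 higher genes, 341 (30.5%) were among the 408, and of the 344 lower genes, 123 (35.8%) were among the 212.

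**Figure D2:**
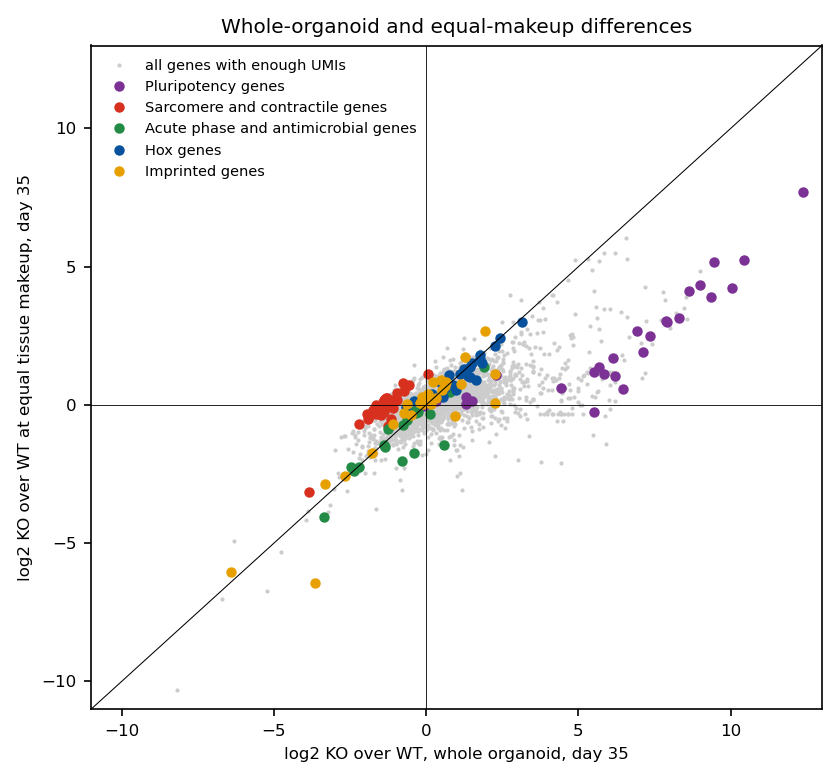
log2 ratio of KO over WT at day 35 for each gene with at least 50 UMIs, over the whole organoid (horizontal) and at equal tissue makeup (vertical). Grey points are all genes, colours mark gene lists and the diagonal is equality. Sarcomere genes, at a median of -1.42 over the whole organoid, sit at -0.13 at equal makeup, while acute phase genes and Hox genes stay near the diagonal.

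The genes highest in KO over WT were those of undifferentiated cells. Dppa5a, an RNA-binding protein of pluripotent cells, had 4 UMIs in WT and 26620 in KO, or 0.130 and 695 CPM, a log2 ratio of 12.39 (11.03 to 14.27). Pou5f1, the transcription factor OCT4 that maintains pluripotency, had 8 and 3959 UMIs, a log2 ratio of 8.64 (7.66 to 9.85). Zfp42, the stem cell marker REX1, had 1 and 1705 UMIs, with a log2 ratio of 10.42 (7.94 to 15.73), and Tdgf1, a NODAL co-receptor, had 1 and 1300 UMIs. Sall4, Dppa4, Trap1a, Platr10 and Pla2g1b had 0 UMIs in WT and between 773 and 1090 in KO. The pluripotent cell-like cluster supplied 96.9% of the KO UMIs of Dppa5a, 95.7% of those of Pou5f1 and 85.3% of those of Trap1a. Most of this group is therefore RNA of 1 cluster, whose cells were in part grouped by these same genes.

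Of the 28 measured genes of the pluripotency list, 25 were at least 2-fold higher (7.82% of all genes) and none was 2-fold lower. Their median log2 ratio was 6.34, against 0.23 for all genes. Without the pluripotent cell-like cluster 11 of them still had at least 50 UMIs, and 5 of these were at least 2-fold higher, at a median of 0.56. Pluripotency markers summed to between 32.3 and 52.9 CPM in the 7 other KO classes examined, and to at most 1.8 CPM in the same WT classes, against 7714 CPM in the pluripotent cell-like class. Whether free RNA gave the low level in the other classes was not tested. The cell cycle list followed the same cluster: 23 of 30 genes were at least 2-fold higher over the whole organoid (7.82% of all genes), at a median of 1.38. Without the cluster 0 of 30 were 2-fold higher, at a median of 0.07. Rrm2, a subunit of the enzyme that makes deoxyribonucleotides, had a log2 ratio of -0.76 without it.

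Genes of the neural and fat classes were higher in KO, as were the shares of their cells. Gfap, the intermediate filament protein of astrocytes, had 3.98 CPM in WT and 110 CPM in KO, a log2 ratio of 4.79 (4.53 to 5.06), and 87.5% of its KO UMIs came from the astrocyte-like cluster. Fabp7, a fatty acid carrier of radial glia and astrocytes, had 12.7 and 140 CPM. Mbp, a protein of the myelin sheath, had 4.79 and 29.6 CPM. Of the gene lists, 11 of 15 oligodendrocyte and myelin genes, 18 of 23 neuronal genes, 7 of 18 astrocyte genes and 7 of 14 adipocyte genes were at least 2-fold higher, against 7.82% of all genes, and none in these lists was 2-fold lower. The equal-makeup levels leave out the neuron-, astrocyte-, oligodendrocyte lineage- and adipocyte-like clusters, since only clusters with at least 50 cells of each library enter, so these lists were not compared at equal makeup of their own tissues. In the clusters that enter, 5 of 18 astrocyte, 5 of 15 oligodendrocyte and myelin and 4 of 14 adipocyte genes were at least 2-fold higher (2.86% of all genes). Of the 23 neuronal genes 0 were 2-fold higher there and 1 was 2-fold lower. Gfap was higher in 9 of 9 clusters compared, Fabp7 in 8 of 8 and Mbp in 6 of 6. The part of free RNA in these values was not tested. Among the adipocyte genes, Adipoq, the fat hormone adiponectin, had 3.14 and 17.8 CPM, and Cfd, a complement protease secreted by fat cells, had 5.31 and 26.1 CPM.

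Sarcomere genes, which encode the contractile fibres of muscle, were lower with the muscle cells. Of 37 genes, 31 were at least 2-fold lower (2.41% of all genes) and none was 2-fold higher, at a median log2 ratio of -1.42. At equal tissue makeup 1 was lower (1.49% of all genes) and 1 higher (2.86% of all genes), at a median of -0.13. Tnnc2, the calcium sensor of fast muscle fibres, had 1174 CPM in WT and 316 CPM in KO over the whole organoid. Within the skeletal muscle-like cluster that supplied most of it, Tnnc2 had 7712 and 7254 CPM, a log2 ratio of -0.09 (-0.12 to -0.06). Mylpf, a light chain of fast myosin, had 8946 and 8249 CPM there. The muscle cells of both genotypes thus held Tnnc2 and Mylpf at near the same level. Of 34 sarcomere genes measured in the skeletal muscle-like class, 4 were at least 2-fold higher (background 0.688%) and 1 lower (0.728%), at a median of 0.10. Not all muscle genes were level: Ankrd2, with 90.6% of its WT UMIs in that cluster, was lower in 2 of 2 clusters compared. Its log2 ratio was -1.13 at equal makeup.

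Outside muscle, transcripts of sarcomere genes were found at low level and were lower in KO in the classes given here. In the mesenchymal cell or fibroblast-like class Tnnc2 had 301 CPM in WT and 81.6 CPM in KO. The summed level of the skeletal muscle markers in that class was 1416 CPM in WT and 481 CPM in KO, against 45717 and 48530 CPM in the skeletal muscle-like class. The 15 of 16 sarcomere genes that were at least 2-fold lower in the otic fibrocyte-like class (background 1.17% lower and 0.665% higher) go with summed muscle markers of 1585 and 450.5 CPM there. The part of free muscle RNA in these values was not tested.

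**Figure D3:**
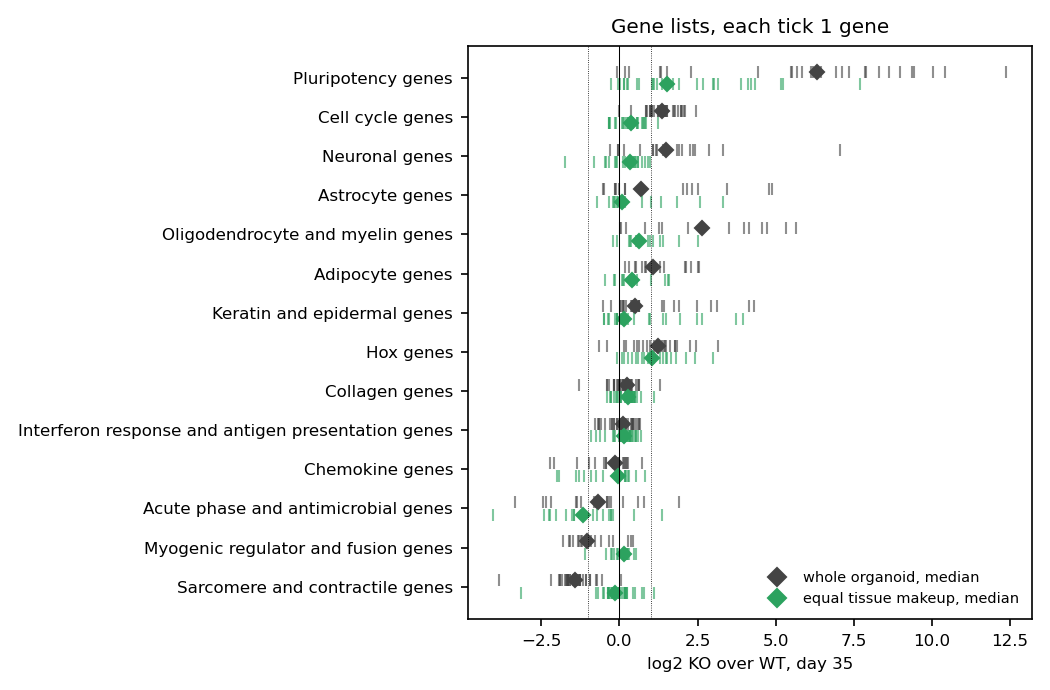
log2 ratio of KO over WT at day 35 for the genes of 14 lists. Each tick is 1 gene, diamonds are medians, grey is the whole organoid and green is equal tissue makeup, and dotted lines mark 2-fold. The pluripotency median is 6.34 over the whole organoid, the sarcomere and acute phase medians lie below 0, and the interferon and collagen genes lie around 0.

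Several imprinted genes differed in the same direction in every cluster that could be compared. Of 7668 genes with a mean of at least 10 CPM that were compared in at least 5 clusters, 475 were higher in all of them and 118 lower. The 118 include the muscle genes Tnnc2, Sln and Mylpf, each lower in 12 of 12 clusters. The 475 include Dppa5a, higher in 9 of 9 clusters at a median log2 ratio of 4.69, and Gfap, Fabp7, Mbp and Lgals7. These are genes of classes with a larger share in KO. The part of free RNA from other cells in either set was not tested. All clusters come from the same 2 libraries and are not replicates. H19 (chromosome 7, 142575529 to 142578143, GRCm38), a maternally expressed non-coding RNA, had 298 CPM in WT and 1146 CPM in KO, a log2 ratio of 1.94 (1.91 to 1.98). It was higher in KO in 12 of 12 clusters, with a median log2 ratio of 2.57 and a range from 1.33 to 4.01. Its neighbour Igf2 (chromosome 7, 142650766 to 142666816), the paternally expressed insulin-like growth factor 2, had 348 CPM in WT and 34.8 CPM in KO, a log2 ratio of -3.32 (-3.41 to -3.24). Igf2 was lower in 12 of 12 clusters, from -4.18 to -1.23. The pair thus went opposite ways in every cluster compared.

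Cdkn1c, a maternally expressed inhibitor of the cell cycle, had 254 CPM in WT and 39.8 CPM in KO, a log2 ratio of -2.67, and was lower in 12 of 12 clusters. The difference was smallest in an otic epithelial-like cluster, at -0.56 (-0.72 to -0.39), and largest in the cluster led by Csf3 and C3, at -4.79 (-6.25 to -3.65). Igf2r, the maternally expressed receptor that clears IGF2, had 41.9 and 12.1 CPM and was lower in 12 of 12 clusters. Grb10, an adaptor that restrains insulin signalling, had 7.90 and 0.627 CPM, and Zim1, a maternally expressed zinc finger gene, had 204 UMIs in WT and 3 in KO, a log2 ratio of -6.40 (-8.69 to -4.83). Dlk1, a paternally expressed regulator of fat and muscle differentiation, had 482 and 226 CPM and was lower in 12 of 12 clusters.

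Paternally expressed genes were among those higher in KO. Mest, a hydrolase of the mesoderm, had 115 and 276 CPM and was higher in 12 of 12 clusters, with a range from 0.17 to 3.6. Snrpn, a splicing protein, had 53.2 and 258 CPM and was higher in 12 of 12 clusters, with a median log2 ratio of 1.14. The pluripotent cell-like cluster supplied 52.2% of its KO UMIs. Its log2 ratio was 2.28 over the whole organoid and 1.11 at equal makeup, which leaves that cluster out. Peg3, a zinc finger regulator, had 87.2 and 123 CPM and was higher in 12 of 12 clusters by less than 2-fold at the median, 0.90. Of the 27 measured imprinted genes, 5 were at least 2-fold higher and 6 at least 2-fold lower over the whole organoid, against 7.82% and 2.41% of all genes, and 3 and 5 at equal makeup, against 2.86% and 1.49%. The words paternal and maternal were attached after the values were seen.

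On day 25, compared between its own pair of libraries, H19 had a log2 ratio of 2.09, Mest of 1.02, Igf2 of -2.35 and Cdkn1c of -3.78. These 4 genes thus had the same direction on both days. The day 25 pair shares no library with the day 35 pair.

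**Figure D4:**
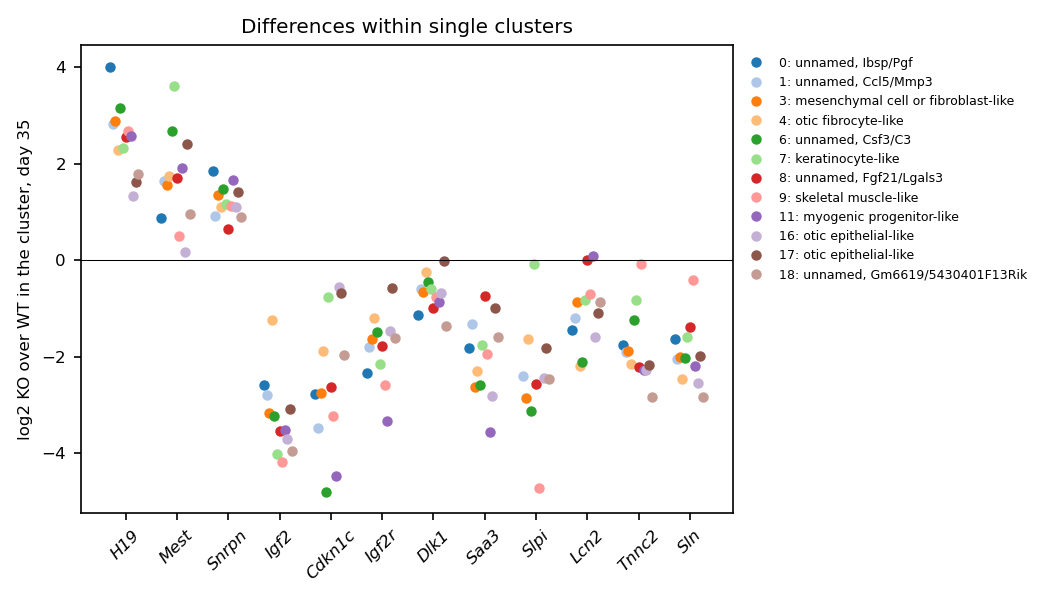
log2 ratio of KO over WT within each of up to 12 clusters that held at least 100 cells of each day 35 library, for imprinted, acute phase and muscle genes. Each point is 1 cluster, coloured by its number and class. H19, Mest and Snrpn lie above 0 in every cluster shown, Igf2, Cdkn1c, Igf2r and Saa3 lie below 0 in every cluster shown, and Tnnc2 lies at -0.09 in the skeletal muscle-like cluster and lower elsewhere.

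Acute phase and antimicrobial genes, secreted defence proteins that inflamed tissues make, included 7 of 18 measured that were at least 2-fold lower in KO, against 2.41% of all genes, and 1 that was higher. Promoter sequences of 3 of them are shown because these genes were low together: the 250 bases before the RefSeq transcription start on the gene's strand (GRCm38.p6), in lower case, with capitals for matches to the C/EBP motif TTGCNNAA on either strand. C/EBP factors are activators of the acute phase response. The windows are at chr7:46742981-46743230 (minus strand) for Saa1, chr7:46715677-46715926 (minus strand) for Saa3 and chr4:63362199-63362448 (plus strand) for Orm2.
Saa1: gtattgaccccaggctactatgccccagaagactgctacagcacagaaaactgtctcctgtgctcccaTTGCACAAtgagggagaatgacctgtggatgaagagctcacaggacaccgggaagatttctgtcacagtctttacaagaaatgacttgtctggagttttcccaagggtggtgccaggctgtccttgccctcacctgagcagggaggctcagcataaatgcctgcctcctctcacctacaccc
Saa3: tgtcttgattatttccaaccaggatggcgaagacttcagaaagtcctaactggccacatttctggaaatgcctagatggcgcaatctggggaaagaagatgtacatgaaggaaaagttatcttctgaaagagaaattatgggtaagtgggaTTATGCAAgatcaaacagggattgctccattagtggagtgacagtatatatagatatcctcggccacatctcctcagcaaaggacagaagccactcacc
Orm2: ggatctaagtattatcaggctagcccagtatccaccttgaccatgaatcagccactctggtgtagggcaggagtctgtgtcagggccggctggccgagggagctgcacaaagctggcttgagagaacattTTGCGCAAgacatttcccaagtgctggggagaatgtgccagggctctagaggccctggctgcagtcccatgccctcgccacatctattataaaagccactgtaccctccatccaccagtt
Of the 14 measured list members with a promoter in the RefSeq table, 9 held such a match in at least 1 window, and 9.56% of all 32851 promoter windows did. The first is a count of genes and the second of single windows. The 9 include Ltf, which was at least 2-fold higher in KO. The window of Reg3g, which was lower in KO, held no match. The NF-kB motif was found for 1 of the 14 (Pglyrp1), and for 0.356% of all windows, and the STAT motif TTCNNNGAA for 1 of the 14 and 7.02% of all windows. The NF-kB pattern searched was longer and had fewer free bases than the C/EBP and STAT patterns, so the counts cannot be compared between motifs. Looser forms of the NF-kB motif were not searched. A match describes the letters only.

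Saa3, a serum amyloid A protein, had 982 CPM in WT and 179 CPM in KO, a log2 ratio of -2.46 (-2.49 to -2.42). It was lower in 12 of 12 clusters, from -3.57 to -0.73. In the mesenchymal cell or fibroblast-like class it had 2906 and 470 CPM, and in the cluster led by Csf3 and C3 it had 8562 and 1425 CPM. Slpi, a protease inhibitor of mucosal surfaces, had 210 and 45.4 CPM, and was lower in 10 of 10 clusters. Its difference was least in keratinocyte-like cells, at -0.08 with an interval from -0.47 to 0.32.

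Lcn2, which starves bacteria of iron, had 822 and 316 CPM, with lower values in 10 of 12 clusters. Orm2, an acute phase plasma protein, had 16.8 and 1.64 CPM. Saa1 had 18.8 and 3.68 CPM, and was lower in 4 of 6 clusters and higher in 2. Reg3g, an antibacterial lectin, had 226 and 15.4 CPM, a log2 ratio of -3.88 (-4.00 to -3.76), with lower values in 9 of 10 clusters. The gene of the list that was at least 2-fold higher was Ltf, an iron-binding protein, and the median of the list was -0.70. At equal makeup 9 were lower (1.49% of all genes), at a median of -1.16 against 0.18 for all genes. The chemokines Cxcl13 and Ccl19, which attract lymphocytes, were lower too, at 50.2 and 10.8 CPM for Cxcl13 and 21.0 and 4.86 CPM for Ccl19. Of the 18 measured genes of the chemokine list, 3 were at least 2-fold lower (2.41% of all genes) and none was 2-fold higher. The median of that list was -0.13, and 7 of the 18 had a log2 ratio above 0. On day 25 the log2 ratios were -0.23 for Saa3, 0.14 for Saa1, -2.30 for Slpi and -2.36 for Reg3g.

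Among the genes lowest in KO were 2 secreted proteins of the inner ear. Otos, otospiralin, made by fibrocytes of the cochlea, had 4796 UMIs in WT and 57 in KO, or 155 and 1.49 CPM, a log2 ratio of -6.71 (-7.11 to -6.33). Otor, otoraplin, had 706 and 3 UMIs, a log2 ratio of -8.19 (-10.47 to -6.64). The cluster named otic fibrocyte-like supplied 91.5% of the WT UMIs of Otos and 89.0% of those of Otor. In that cluster, which had 1537 WT and 1010 KO cells, Otos had 4386 UMIs in WT and 0 in KO, and Otor 628 and 0. Both genes are among those that lead the cluster, which also carries Slc6a13, Apod and Ptgds, so the name rests in part on genes without a UMI in its KO cells, and its size was not compared.

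Keratinocyte-like cells differed in the genes of skin differentiation. Krt1, a keratin of the differentiating layers of the epidermis, had 0 UMIs in 144 WT cells and 1262 in 168 KO cells, or 1108 CPM. Its partner Krt10 had 28 and 2664 UMIs, or 44.6 and 2338 CPM, a log2 ratio of 5.71 (5.18 to 6.31). Lor, loricrin of the cornified envelope, had 0 and 129 UMIs. Krt14, the keratin of the basal layer, had 1424 and 1551 CPM, and Krt17 had 1564 and 1147 CPM. Krt15, another keratin of the basal layer and a leading gene of the cluster, had 358 and 912 CPM, a log2 ratio of 1.35 (1.14 to 1.56). Krt5, the basal partner of Krt14, had 358 and 697 CPM.

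Other genes higher in these cells were Stfa3, a cysteine protease inhibitor, with 9 and 1041 UMIs, Serpinb3a, with 0 and 212, and Them5, with 0 and 135. Lower were Reg3g, with 4866 CPM in WT and 143 CPM in KO, and Sprr2d and Sprr2e, small proline-rich proteins of the cornified envelope, with 1171 and 131 CPM and with 277 and 7.02 CPM. Of 22 measured keratin and epidermal genes 7 were at least 2-fold higher (background 2.87%) and none 2-fold lower. Some of these, such as Lgals7 and Krtdap, lead the cluster. Of 21 immediate early and heat shock genes, 7 were at least 2-fold lower (background 2.78%), among them Atf3, with 471 and 151 CPM, and Fosb, with 348 and 126 CPM.

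**Figure D5:**
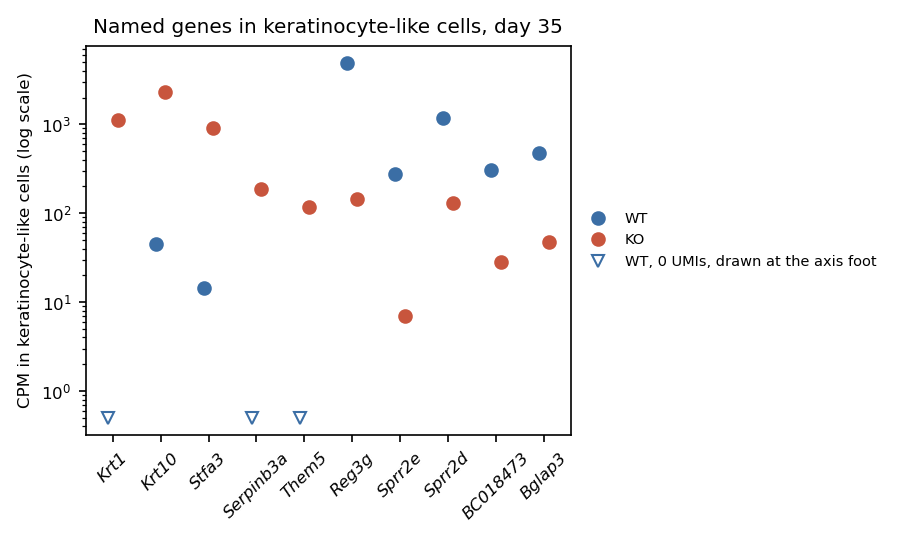
Level of the named genes in keratinocyte-like cells at day 35, in CPM on a log axis, for WT (144 cells) and KO (168 cells). Points are single libraries, and open triangles mark 0 UMIs. Krt1, Krt10, Stfa3, Serpinb3a and Them5 are higher in KO, and Reg3g, Sprr2e, Sprr2d, BC018473 and Bglap3 are lower.

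Mesenchymal cell or fibroblast-like cells differed in positional genes. Hox genes, which set position along the body axis, were higher: all 4 measured in this class were at least 2-fold higher (background 1.41%), with Hoxc10 at 7.09 CPM in WT and 27.8 CPM in KO and Hoxa10 at 19.3 and 46.8 CPM. Over the whole organoid 13 of 23 Hox genes were at least 2-fold higher (7.82% of all genes), and 13 at equal makeup (2.86% of all genes), at a median of 1.24 and 1.04. On day 25 their median was -0.63. Tcf21, a transcription factor of visceral and cardiac mesenchyme, had 4 and 112 UMIs in this class, a log2 ratio of 4.44 (3.05 to 6.34). Alx1, a factor of craniofacial mesenchyme, had 11 and 115 UMIs, a log2 ratio of 3.02 (2.13 to 4.06).

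In the same class, 5 of 20 cholesterol synthesis genes were at least 2-fold lower (background 1.23%), at a median of -0.82 against 0.05 for all genes of the class. In keratinocyte-like cells 5 of 10 genes of that list were at least 2-fold higher (background 2.87%), at a median of 0.94. Of 23 immediate early and heat shock genes 6 were at least 2-fold higher (background 1.41%), with Nr4a1 at 152 and 383 CPM and Fosb at 132 and 387 CPM, the reverse of the keratinocyte-like cells. Reg1, a secreted lectin, had 169 and 4 UMIs, and Trf, the iron carrier transferrin, had 219 and 24.

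In skeletal muscle-like cells 35 of 5084 genes (0.688%) were at least 2-fold higher and 37 (0.728%) lower. Imprinted genes made up 4 of the higher and 3 of the lower ones, and sarcomere genes 4 and 1. H19 had 1063 and 6591 CPM there, Igf2 672 and 34.9 CPM, and Cdkn1c 720 and 65.1 CPM. Mb, the oxygen carrier myoglobin, had 128 and 342 CPM. Myl3, a myosin light chain of slow and cardiac muscle, had 171 and 7 UMIs. In myogenic progenitor-like cells, where 1.10% of 2548 genes were higher and 1.61% lower, Cdkn1c had 931 and 41.8 CPM, and Spp1, the secreted matrix protein osteopontin, had 79.1 and 334 CPM.

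Spp1 went the other way over the whole organoid, with 552 CPM in WT and 235 CPM in KO, and Dmp1, a matrix protein of mineralising bone, had 18.2 and 4.44 CPM. These were the 2 of 9 measured osteogenic genes that were at least 2-fold lower (2.41% of all genes). The 1 that was at least 2-fold higher (7.82% of all genes) was the phosphatase Alpl, with 1.13 and 4.96 CPM. Without the pluripotent cell-like cluster 8 of the 9 still had at least 50 UMIs, with 2 at least 2-fold lower and 0 higher. Mmp13, a collagenase of cartilage and bone, had 108 UMIs in WT and 15 in KO, a log2 ratio of -3.16 (-4.04 to -2.37). In its list of 16 metalloproteinases and inhibitors 2 were at least 2-fold lower (2.41% of all genes) and 2 higher (7.82% of all genes), at a median of 0.12. Tmsb10, an actin-binding peptide, was lower in 12 of 12 clusters, with 3715 CPM in WT and 1190 CPM in KO and a range from -1.67 to -1.0. No other member of its list of actin monomer genes was 2-fold lower over the whole organoid.

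Several lists held no gene past 2-fold in either direction over the whole organoid. These were the 34 interferon response and antigen presentation genes, at a median of 0.11, the 31 hypoxia and glycolysis genes, at 0.15, the 27 genes of the unfolded protein and integrated stress response, at 0.09, the 15 p53 target genes, at 0.13, and the 76 nuclear oxidative phosphorylation genes, at -0.08. The 24 cholesterol synthesis genes, at 0.08, and the 13 mitochondrially encoded genes, at -0.31, held none either.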

How the data were processed

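Single-cell libraries were made from dissociated organoids with droplet capture, per the labels' protocols. The authors deposited unnormalised whole-number counts of UMIs for each gene in each barcode. Tools named in the submitters' processing notes are bcl2fastq, R 3.5.1, Seurat 2.3.1 and Cell Ranger 2.1.0, with builds GRCm38 and mm10. Strand and multi-mapping settings: not given in the sources used here.

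Barcodes were filtered as stated in the report. Doublets were scored by scrublet in scanpy 1.11.5 at an expected 0.8% per 1000 cells. Its threshold called 1 WT and 3 KO cells at day 35, under 0.5%, so the caller had failed and all cells stayed in. All 4 libraries were clustered together (2000 variable genes, 30 principal components, 20 neighbours, Leiden resolution 1.0), giving 24 clusters. A cluster was named where at least 3 markers of a set were among its top 50 genes by fold, after adding 10 CPM, at least 2 were in the top 20, and no other set had more in the top 10. UMIs were summed per library or class and given as CPM. Shares have exact Clopper-Pearson, levels exact Poisson and ratios conditional binomial intervals. A count of 0 was set to 3 counts in a ratio. The ratio intervals were tested on simulated counts that hold counting error alone, with no variation between libraries or cells.

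Equal makeup weights each cluster with at least 50 cells in both libraries by its mean share. Named genes were, of genes with a mean of at least 10 CPM, the 15 on each side past 2-fold whose interval bound nearest 0 was largest, the 10 on each side with the largest median log2 ratio among genes with the same sign in every cluster compared (at least 5), the 5 on each side in each class, and any list or marker gene. The members, lists and rules were chosen with earlier results of these data known. Of 27998 gene identifiers, 27645 matched the GRCm38 annotation used for positions, and promoters are from RefSeq. Single-library comparisons were not tested.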

Additional observations from a re-analysis of the deposited data

Results flagged for a closer look

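The direction of KO over WT differed between days 25 and 35 for 7 cell classes, with intervals for counting error that exclude a ratio of 1 on both days. With 1 library per genotype and day, the difference between the days was not tested. The log2 ratio at day 35 minus that at day 25 was 9.91 for pluripotent cell-like cells, whose 0 WT cells at day 35 were set to 3, 6.84 for oligodendrocyte lineage-like, 5.75 for astrocyte-like, 3.65 for neuron-like and 1.60 for keratinocyte-like cells, all of which had a ratio below 1 at day 25. It was -1.67 for myogenic progenitor-like and -1.32 for cycling cell-like cells, which had ratios of 1.13 and 1.18 at day 25. By marker count the cycling ratio at day 35 was 1.43, the same direction as at day 25. For astrocyte-like cells the day 25 shares were 5.85% (WT) and 3.26% (KO), and the WT share at day 35 was 0.147%.

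The same holds for 20 of the named genes. The difference of log2 ratios, day 35 minus day 25, was 15.61 for Dppa5a, 14.85 for Zfp42, 13.61 for Pla2g1b, 11.67 for Tdgf1, 11.66 for L1td1, 11.63 for Utf1, 11.20 for Tdh, 11.19 for Pou5f1, 10.24 for Rhox5, 10.09 for Sall4, 9.96 for Dppa4, 9.77 for Trap1a and 9.32 for Platr10, all genes that came mostly from the pluripotent cell-like cluster. It was 10.32 for Stfa3 and 4.47 for Lgals7, genes of keratinocyte-like cells, and 6.52 for Gfap and 3.68 for Fabp7, which came mostly from astrocyte-like cells in KO. For Sox2, whose KO UMIs came most from the pluripotent cell-like cluster, it was 2.94. It was -2.63 for Gm6619 and -2.55 for 5430401F13Rik, which lead an unnamed cluster. A gene with 0 UMIs in a library was set to 3 counts.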

How the results depend on the processing

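Of 100 values for counts of genes and class ratios under other settings, 88 kept their direction and stayed within 1.5 times the count, or within the counting interval of the ratio, reported. That interval is wide for classes of few cells: the oligodendrocyte lineage-like ratio ran from 19.8 to 77.7, the adipocyte-like from 4.29 to 9.71, the astrocyte-like up to 42.2 and the neuron-like from 3.66 to 6.80. Counts of genes at least 2-fold higher and lower over the whole organoid were 2929 and 1711 with no minimum of UMIs, and 567 and 225 with at least 200 UMIs, where the number of genes tested also differs. Without the pluripotent cell-like cluster 629 were higher. At equal makeup, 711 were higher among cells with at least 1000 genes and at most 5% mitochondrial UMIs. The mesenchymal cell or fibroblast-like ratio was 1.43 without a filter on cells, 1.34 with only the day 35 libraries clustered and 0.896 at resolution 2.0. Counting cells with at least 3 markers after thinning to 1500 UMIs gave 0.246 for skeletal muscle-like, 3.57 for astrocyte-like and 1.43 for cycling cell-like cells. The cause was not tested. Neuron-like and oligodendrocyte lineage-like classes were not found with only the day 35 libraries clustered, nor the latter at resolution 0.5. Among 1156 values for named genes, 1 changed sign where the reported ratio was at least 2-fold, Rrm2 at -0.76 without the pluripotent cell-like cluster. Sign changes of genes under 2-fold were not counted as such. Beyond their counting interval moved 412 others. Of 455 list medians 152 moved by 0.1 or more, and none of at least 1 in size changed sign, though smaller ones did, such as cholesterol synthesis from 0.08 to -0.13 without that cluster. A clustering without 51 leading genes that differed 2-fold within their own cluster, chosen after seeing the data, kept the direction of each class ratio. No paired analysis was possible because each group has 1 library, and no replicate could be left out.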
